A study of Homo sapiens with 12 samples.

Results

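Fibronectin and the matricellular proteins were followed here through 10 genes, FN1, TNC, THBS1, THBS2, SPARC, SPOCK1, ABI3BP, TGFBI, FBN1 and POSTN, out of 60504 genes in the deposited tables. They were taken as a list by gene name, which was chosen with earlier results of these data known. The 12 libraries came from T24, a cell line established from a human bladder carcinoma. For the knockout comparison, U1 and U2 (2 libraries labelled U11 knockout) were set against T1 and T2 (2 T24 controls). The study made the knockout with CRISPR/Cas9 and a pair of guides against U11, the RNA that recognises the 5′ splice site of the rare U12-type introns, and grew it from a monoclonal line. The overexpression comparison held 6 libraries of stable lines transfected with a plasmid carrying U11 (pcDNA-U11) and 2 T24 controls (T24P3 and T24-4). Line labels divided the 6 libraries into pairs named 79, 86 and 87, and the study selected such lines as single clones. The 4 controls were labelled untreated, and controls were assigned to a comparison by the code in their titles. The labels do not say whether libraries of 1 line label, or U1 and U2, came from separate cultures. P values therefore measure the spread between libraries, which may be technical. Nor do the labels say whether U1 and U2 come from 1 clone. A difference between clones therefore cannot be told apart from the knockout label.

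Fibronectin (FN1) is secreted as a dimer and is pulled into fibrils on the cell surface by integrins, where it carries other matrix proteins. Matricellular proteins such as tenascin-C (TNC), the thrombospondins, SPARC, periostin (POSTN) and TGFBI are secreted into the same matrix, but act mainly on adhesion, growth factors and matrix turnover rather than as structural fibres. Fibrillin-1 (FBN1) is the structural member of the set and builds the microfibrils of elastic tissue.

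Abundance was read as TPM, Stringtie's measure per transcript length scaled to 1 total per library. Sequencing behind a library was inferred from its highest ratio of coverage (mean aligned depth) to FPKM over genes above 1 FPKM. This estimate ranged from 9.07 to 15.33 aligned gigabases. U11 itself, the targeted RNA, stood at 21.4 and 23.8 TPM in T1 and T2 and at 31.6 and 37.4 TPM in U1 and U2, so these TPM values go against the knockout label, and every direction below rests on the label. U11 is a short RNA, and how well these libraries capture it was not tested. Its level was 0.03 and 0.62 TPM in the controls of the overexpression comparison and 0.18 and 0.41 TPM in line 79. It was 3.98 and 3.72 TPM in line 86 and 61.9 and 53.6 TPM in line 87. Line 79 thus lay within the range of its controls, so its TPM values do not show the overexpression of its label. Histone genes made up 27660 to 34280 TPM in the knockout comparison and 103.4 to 179.8 TPM in the overexpression comparison, so levels were compared only within a comparison. Keratins KRT7, KRT8, KRT18 and KRT19 and the urothelial regulators GATA3, PPARG and FOXA1 were above 1 TPM in all groups. The uroplakins, the differentiation markers of the urothelium, were each at or under 0.20 TPM on average in every condition. Of the same marker lists, the epithelial marker CDH1 averaged at most 0.08 TPM and the urothelial marker TP63 at most 0.03 TPM. Under the knockout label KRT19 was lower, at 91.6 against 154.1 TPM (log2 fold change -0.74, limma adjusted P = 0.0194), as was FOXA1, at 9.45 against 18.3 TPM (-0.89, limma adjusted P = 0.0342). GATA3 was at 5.14 against 2.66 TPM (0.75, limma adjusted P = 0.0553, called at the unadjusted threshold) and EPCAM at 0.12 against 1.03 TPM, and the part of this shift in the results was not tested.

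A group of 5 members shared a pattern on which the results turn: FN1, TNC, THBS1, TGFBI and FBN1 were called higher under the knockout label and lower in line 87, TNC with the limit given at its values. The 250 bases upstream of their RefSeq start sites (GRCh38.p14, the build of the deposited coordinates, in the direction of the gene) are shown with matches to a fixed set of motifs in capitals. These were the cyclic AMP response element TGACGTCA, the AP-1 element TGANTCA, the TEAD element GGAATG and CCAAT on both strands, and TATAA on the strand of the gene.
FN1 (chr2:215436069-215436318, minus strand): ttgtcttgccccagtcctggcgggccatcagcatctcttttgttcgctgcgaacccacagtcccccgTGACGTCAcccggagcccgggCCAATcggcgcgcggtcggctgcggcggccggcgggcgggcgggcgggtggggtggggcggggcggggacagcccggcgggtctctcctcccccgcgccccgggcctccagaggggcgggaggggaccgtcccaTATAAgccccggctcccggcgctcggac
TNC (chr9:115118158-115118407, minus strand): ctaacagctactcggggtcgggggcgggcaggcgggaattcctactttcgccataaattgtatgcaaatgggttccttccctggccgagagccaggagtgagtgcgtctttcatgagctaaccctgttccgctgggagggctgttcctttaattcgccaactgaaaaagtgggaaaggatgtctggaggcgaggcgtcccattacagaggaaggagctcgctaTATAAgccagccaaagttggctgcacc
THBS1 (chr15:39580829-39581078, plus strand): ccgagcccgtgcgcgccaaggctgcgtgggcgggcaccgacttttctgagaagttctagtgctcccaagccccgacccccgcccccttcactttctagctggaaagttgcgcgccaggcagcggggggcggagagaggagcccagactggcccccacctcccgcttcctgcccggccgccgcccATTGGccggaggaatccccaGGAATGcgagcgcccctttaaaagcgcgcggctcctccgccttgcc
TGFBI (chr5:136028738-136028987, plus strand): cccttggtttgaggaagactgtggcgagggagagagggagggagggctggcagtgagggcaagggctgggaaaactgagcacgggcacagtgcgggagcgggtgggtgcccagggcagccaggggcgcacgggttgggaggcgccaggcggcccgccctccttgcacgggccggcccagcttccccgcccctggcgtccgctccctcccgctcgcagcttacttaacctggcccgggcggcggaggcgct
FBN1 (chr15:48644971-48645220, minus strand): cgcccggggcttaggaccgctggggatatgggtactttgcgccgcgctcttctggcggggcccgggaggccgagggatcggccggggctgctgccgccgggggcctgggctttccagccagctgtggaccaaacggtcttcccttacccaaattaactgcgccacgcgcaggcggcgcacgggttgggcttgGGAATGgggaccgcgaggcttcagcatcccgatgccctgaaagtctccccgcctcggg
Counting back from -1 at the base before the start site, FN1 held TGACGTCA from -183 to -176, CCAAT from -162 to -158 and TATAA from -28 to -24. TNC held TATAA from -27 to -23. THBS1 held a TEAD match from -46 to -41 and CCAAT on the opposite strand (ATTGG) from -66 to -62, and FBN1 a TEAD match from -58 to -53. No motif of the set lay in the TGFBI window. Among members without the pattern, THBS2 held TEAD matches from -103 to -98 and from -91 to -86 and TATAA from -29 to -25, SPARC a TEAD match from -17 to -12, and POSTN an AP-1 match from -220 to -214 and 3 TATAA matches, while ABI3BP held none. Of 27305 promoters in the same table, 1.765% held the cyclic AMP response element, 6.596% the AP-1 element, 11.9% the TEAD element, 33.04% CCAAT and 14.26% TATAA in these 250 bases. The matches are letters in a window and no measurement of binding. Of the 10 members, 9 had an entry in the table, and SPOCK1 had none.

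Across all 12 libraries, FN1 was the most abundant of the 10 genes and POSTN the least abundant in all but the 87 libraries, where TNC was as low or lower. In the knockout comparison, the question was how the matrix genes stood in the libraries labelled U11 knockout. Of the 9 members that passed the expression filter (2 or more libraries of the comparison at 1 TPM or above), 7 were called up-regulated and 1 down-regulated (unadjusted P under 0.05 and fold change of at least 1.5, the thresholds of the study). Among all 14356 genes tested, 8.61% were called up-regulated and 3.15% down-regulated. With the Benjamini-Hochberg adjusted P of limma, 6 of the 9 passed, against 6.85% of all genes in either direction. TNC and ABI3BP passed the filter only through the group where they were higher, so that they had to differ. Of the 7 members at 1 TPM or more in all 4 libraries, 6 were called up-regulated, 0 down-regulated and 5 up-regulated after adjustment. Adjusted calls rested on both libraries: without U1, 2 of all genes tested passed after adjustment, and without U2 0 did, while 1409 up and 435 down passed the unadjusted threshold. In each of these fits 5 members were called up-regulated by the unadjusted threshold. The median log2 fold change was 1.22 over the members and 0.11 over all genes. After median ratio scaling within the comparison, calls over all genes were 771 up and 779 down in place of 1236 up and 452 down, and 6 members were called up-regulated, SPARC no longer among them.

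FN1 (ENSG00000115414, chr2:215360440-215436172, minus strand) was at 931.7 and 1014 TPM in T1 and T2 and at 3572 and 2727 TPM in U1 and U2. The means were 3150 ± 598 TPM (SD, n = 2) against 973 ± 58.0 TPM (SD, n = 2). Its log2 fold change was 1.68 (SE 0.14, limma adjusted P = 0.0124). THBS1 (ENSG00000137801, chr15:39581079-39599466, plus strand), an inhibitor of angiogenesis and activator of latent TGF-beta, had 203.1 and 203.4 TPM in T1 and T2, against 638.2 and 509.5 TPM in U1 and U2. That is a log2 fold change of 1.48 (SE 0.12, limma adjusted P = 0.0118). An entry on the same strand, CTD-2033D15.2, overlaps THBS1 and reached at most 5.06 TPM.

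TGFBI (ENSG00000120708, chr5:136028895-136063818, plus strand), a TGF-beta induced protein that binds integrins and collagens, had the largest rise of the members. Its controls had 24.9 and 23.5 TPM, and the libraries under the knockout label 156.5 and 160.5 TPM, a 6.55-fold ratio of the means. The log2 fold change was 2.66 (SE 0.09, limma adjusted P = 0.00276). FBN1 (ENSG00000166147, chr15:48408306-48645849, minus strand) went from 33.96 and 37.9 TPM to 85.4 and 69.8 TPM, and its log2 fold change was 1.08 (SE 0.14, limma adjusted P = 0.0227). TNC (ENSG00000041982, chr9:115019578-115118257, minus strand), an adhesion-modulating glycoprotein of remodelled tissue and tumor stroma, was a low gene here. T1 and T2 had 0.64 and 0.81 TPM, and U1 and U2 had 4.21 and 2.58 TPM (log2 fold change 1.33, SE 0.22). U1 and U2 alone brought TNC past the filter, so its limma adjusted P of 0.0366 is not independent of the difference.

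SPOCK1 and SPARC are related calcium-binding matrix proteins, SPOCK1 being a proteoglycan (testican-1) and SPARC a collagen-binding protein. SPOCK1 (ENSG00000152377, chr5:136975298-137598379, minus strand) had 49.7 and 53.1 TPM in T1 and T2, and 131.0 and 111.6 TPM in U1 and U2. Its log2 fold change was 1.22 (SE 0.11, limma adjusted P = 0.0149). SPARC (ENSG00000113140, chr5:151661096-151687165, minus strand) was at 108.3 TPM in T1 but 64.3 TPM in T2, and at 142.1 and 133.8 TPM in U1 and U2. Its log2 fold change of 0.72 passed at the unadjusted threshold only (SE 0.25, limma adjusted P = 0.144), and without T2 it was 0.35 and no longer called.

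The spread of the SPARC controls was found in TPM and not in coverage, the mean aligned depth over the gene that Stringtie gives beside TPM. Coverage of SPARC was 492.9 in T1 and 487.1 in T2, and 1020 and 1023 in U1 and U2. With coverage set to a common library total, an alternative chosen after seeing the data, the log2 fold change of SPARC was 1.06 (SE 0.07, limma adjusted P = 0.00741). The ratio of coverage to FPKM has an upper limit in each library, the value read above as aligned gigabases. A gene falls short of that limit when its TPM is large beside its depth over the entire entry. SPARC stood at 44.2% of that limit in T1 and at 72.4% in T2. SPOCK1 stood at 2.9% to 3.3% in all 12 libraries, so its TPM is high beside a coverage of 15.6 to 38.1 in the knockout comparison, and its rise on coverage was 0.94 (SE 0.12, limma adjusted P = 0.0241). GENCODE release 44 lists 10 SPOCK1 transcripts of 399 to 4824 bases and 9 SPARC transcripts of 218 to 3451 bases, and the part of transcript assignment in these values was not tested.

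ABI3BP (ENSG00000154175, chr3:100749156-100993515, minus strand), a matrix protein that binds the SH3 domain of ABI3, was the member called down-regulated. T1 and T2 had 1.28 and 1.81 TPM, and U1 and U2 had 0.80 and 0.31 TPM. T1 and T2 alone brought it past the filter, so its test is not independent of the difference either. Its log2 fold change was -0.72 (SE 0.21, limma adjusted P = 0.107), on coverage it was -0.32 and not called, and without U2 it was -0.49 and not called. THBS2 (ENSG00000186340, chr6:169215780-169254044, minus strand), the second thrombospondin of this subgroup, was at 1.07 TPM in both controls and at 1.55 and 1.26 TPM in U1 and U2. The log2 fold change was 0.21 (SE 0.13, limma adjusted P = 0.334), which did not pass. POSTN (ENSG00000133110, chr13:37562583-37598844, minus strand), periostin, a secreted relative of TGFBI, was listed at 0 in both controls and at 0.33 and 0.22 TPM in U1 and U2. It passed the filter in neither comparison and was not tested. The longest stretch shared exactly between THBS1 and THBS2 transcripts was 29 bases, between TGFBI and POSTN 14 bases and between SPARC and SPOCK1 12 bases.

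For the overexpression comparison, all 6 overexpression libraries were set against the 2 controls that share their title codes. The 6 libraries are pairs from 3 line labels, but each entered this test on its own, so its P values treat paired libraries as separate. SPOCK1 and ABI3BP were called up-regulated and no member was called down-regulated, where 0.767% of the 15768 genes tested were called up-regulated and 1.16% down-regulated. After adjustment ABI3BP alone passed among the members, against 0.165% of all genes. ABI3BP was at 9.17 and 9.89 TPM in the controls T24P3 and T24-4, and over the 6 overexpression libraries its lowest, median and highest values were 24.1, 33.6 and 43.7 TPM. All 6 were above both controls, with a mean of 34.7 ± 7.0 TPM (SD, n = 6) against 9.53 ± 0.51 TPM (SD, n = 2) and a log2 fold change of 1.74 (SE 0.20, limma adjusted P = 0.014). On coverage this was 1.73 (limma adjusted P = 0.0318). Within the title codes, which join 1 control with 1 library of each line, the mean log2 difference of ABI3BP was 1.72 for R17018 and 1.75 for R18019.

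SPOCK1 was at 39.0 and 41.8 TPM in the controls, and its lowest, median and highest values in the overexpression libraries were 64.2, 80.5 and 320 TPM. The 6 libraries lay above both controls but far apart (151.8 ± 122.5 TPM, SD, n = 6). Its log2 fold change of 1.52 (SE 0.67, unadjusted P = 0.0492, limma adjusted P = 0.831) lost the call without T24P3, T24-4, 79-1, 79-3 or 86-3, with log2 fold changes of 1.24 to 1.63. The other 7 tested members did not pass. THBS1 had a log2 fold change of -1.05 (SE 0.52, limma adjusted P = 0.879), which was -1.24 and called without 86-1 and -1.22 and called without 86-3. The log2 fold changes were -1.71 for TNC (SE 0.99, limma adjusted P = 0.898) and 0.34 for TGFBI (SE 0.99, limma adjusted P = 0.982). Their libraries lay apart by line label, as the next comparison describes.

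A single model with a group for each line label showed what the pooled comparison averaged. SPOCK1 and ABI3BP were called up-regulated in each of the lines 79, 86 and 87, and the other called members differed from line to line. In line 79, 3 members were called up-regulated and 1 down-regulated, where 2.43% and 5.52% of all genes were. In line 86 there were 2 and 2, beside 1.59% and 2.01% of all genes, and in line 87 there were 2 and 5, beside 2.08% and 3.05%. The median log2 fold change of the members was 0.20 in line 79, 0.01 in line 86 and -0.70 in line 87, and over all genes it was -0.03, 0.01 and -0.01. The 3 lines share their 2 controls, so these comparisons are not independent of each other.

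Tested directly, 7 of the 9 members differed between the line labels (F test of limma, adjusted P under 0.05), beside 16% of all genes. TGFBI stood on both sides of its controls. It was at 52.2 and 49.0 TPM in the controls, 235.2 and 237.7 TPM in line 79, 58.5 and 57.9 TPM in line 86 and 18.1 and 19.4 TPM in line 87. Line 79 was above the controls by 2.20 on the log2 scale (SE 0.07, limma adjusted P = 6.24e-05) and line 87 was below them at -1.38 (SE 0.07, limma adjusted P = 0.000409). Line 86 did not pass (0.20, SE 0.07, limma adjusted P = 0.28). The 3 lines differed from each other in every pair, and lines 79 and 87 by 3.59 on the log2 scale (limma adjusted P = 1.62e-05).

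TNC followed the line labels in 1 direction. It was at 12.3 and 11.7 TPM in the controls, 10.3 and 10.03 TPM in line 79, 5.45 and 3.75 TPM in line 86, and was listed at 0 in 87-1 and at 0.02 TPM in 87-3. Coverage of TNC in these last libraries was 0 and 0.05, beside 19.9 and 28.1 in the controls. No fold is given for line 87, where 1 library is at 0. On the log2(TPM + 1) scale the difference was -3.68 (SE 0.16, limma adjusted P = 0.000316), a value that depends on the pseudocount and was -6.79 with 0.1. In line 86 the log2 fold change was -1.23 (SE 0.16, limma adjusted P = 0.0193), and lines 86 and 87 differed by 2.46 (limma adjusted P = 0.000879).

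THBS1 fell in lines 79 and 87 but not detectably in line 86. It was at 202.4 and 188.9 TPM in the controls, 97.0 and 95.0 TPM in line 79, 182.8 and 172.5 TPM in line 86 and 48.6 and 48.2 TPM in line 87. The log2 fold changes were -1.02 in line 79 (SE 0.07, limma adjusted P = 0.000596), -0.14 in line 86 (SE 0.07, limma adjusted P = 0.444) and -1.99 in line 87 (SE 0.07, limma adjusted P = 0.000229). FN1 and FBN1 fell in line 87 alone by the call, and both differed from line 87 in the direct test of lines 79 and 86. FN1 was at 1997 and 1901 TPM in the controls, 1838 and 1777 TPM in line 79, 2005 and 1905 TPM in line 86 and 1074 and 1069 TPM in line 87 (log2 fold change in line 87 of -0.86, SE 0.06, limma adjusted P = 0.000883). FBN1 was at 98.4 and 92.7 TPM in the controls, 104.9 and 109.9 TPM in line 79, 97.2 and 95.6 TPM in line 86 and 56.9 and 59.6 TPM in line 87 (-0.70, SE 0.07, limma adjusted P = 0.00419). Lines 79 and 86 did not differ detectably in FN1 (-0.11, SE 0.06, limma adjusted P = 0.257) or FBN1 (0.15, SE 0.07, limma adjusted P = 0.199).

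SPOCK1 separated line 79 from the others. It was at 299.2 and 319.8 TPM in line 79, 66.9 and 82.0 TPM in line 86 and 64.2 and 79.0 TPM in line 87, with log2 fold changes of 2.91, 0.86 and 0.80 (limma adjusted P = 0.000176, 0.0366 and 0.0319). Lines 86 and 87 did not differ detectably (0.06, SE 0.13, limma adjusted P = 0.873). On coverage the log2 fold changes were 2.53, 0.66 and 0.62. ABI3BP rose to 32.6 and 34.5 TPM in line 79, 43.7 and 41.0 TPM in line 86 and 24.1 and 32.0 TPM in line 87, with log2 fold changes of 1.72, 2.04 and 1.45 (limma adjusted P = 0.00122, 0.00269 and 0.0041). Its difference between the lines did not pass on TPM (F test, limma adjusted P = 0.0661).

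THBS2 was at 1.18 TPM or under in the controls and 1.73 to 1.80 TPM in line 79. In line 86 it was at 0.28 and 0.27 TPM (-0.65, SE 0.16, limma adjusted P = 0.136, called at the unadjusted threshold, but at -0.52 and not called without T24-4), and lines 79 and 86 differed by 1.12 (limma adjusted P = 0.0077). SPARC was at 235.2 and 248.4 TPM in the controls and between 187.4 and 279.1 TPM in the overexpression libraries, and its line labels did not differ by the F test on TPM (limma adjusted P = 0.126). With coverage all 9 tested members differed between the line labels, SPARC and ABI3BP included, and SPARC was higher in line 79 by 0.38 (SE 0.04, limma adjusted P = 0.00377), under the fold threshold. POSTN was at most 0.17 TPM in the overexpression comparison.

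Within each title code the line differences had the same direction for the called members. TGFBI in line 79 was above the control of its own code by 2.15 and 2.26 on the log2 scale, and TGFBI in line 87 stood at -1.48 and -1.29. THBS1 in line 87 stood at -2.04 and -1.95, and FN1 in line 87 at -0.90 and -0.83. SPOCK1 in line 79 stood at 2.91 in both codes.

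**Figure D1:**
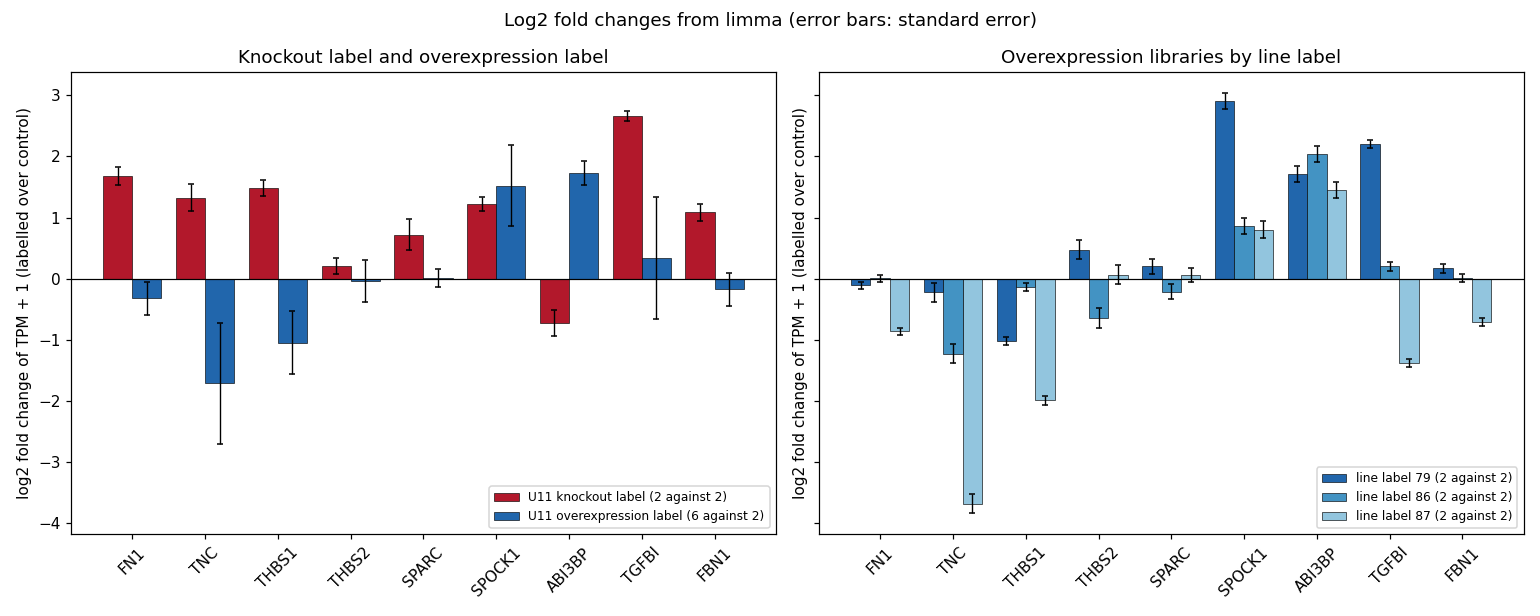
Log2 fold changes of TPM + 1 over control for the 9 tested members, with bars from limma and error bars of 1 standard error, for the 2 labels on the left and the 3 line labels on the right. The wide error bars of TNC, THBS1, SPOCK1 and TGFBI under the overexpression label stand beside line labels that lie apart, from 2.20 to -1.38 for TGFBI.

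**Figure D2:**
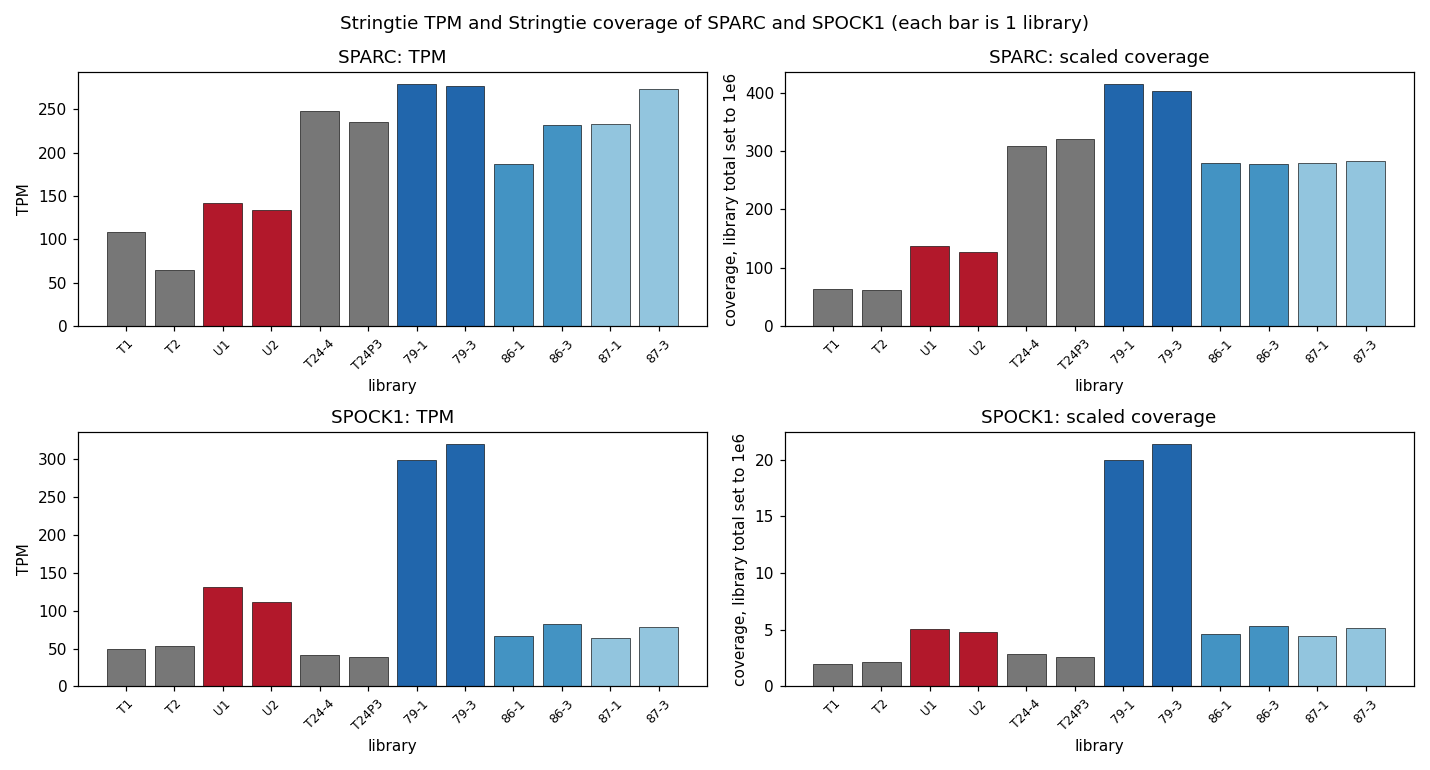
TPM (left) and coverage with each library total set to the same value (right) of SPARC and SPOCK1 in each of the 12 libraries, 1 bar per library, in grey for controls, red for the knockout label and blue for the line labels. T1 and T2 stand apart for SPARC in TPM (108.3 and 64.3) and together in scaled coverage (63.4 and 62.5), while line 79 is highest for SPOCK1 on both.

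The knockout-label and overexpression-label effects were then compared with each other in one model over all 12 libraries, with the 3 lines weighted equally. The difference passed for 6 of the 9 members (limma adjusted P under 0.05), beside 13.9% of all genes. The SE of this test comes from the spread of libraries within each group, and the spread between lines does not enter it. Its P values therefore do not measure whether a difference holds across lines. With that spread included, the overexpression-label effect alone had an SE of 0.99 for TGFBI, 0.99 for TNC and 0.52 for THBS1. For FN1 the difference was 2.0 (SE 0.14, limma adjusted P = 8.61e-05), for THBS1 2.53 (SE 0.13, limma adjusted P = 1.22e-05) and for TNC 3.04 (SE 0.25, limma adjusted P = 0.00017). For TGFBI it was 2.32 and for FBN1 1.26. ABI3BP went the other way with a difference of -2.46 (SE 0.24, limma adjusted P = 0.000385), with values of -0.72 under the knockout label and 1.74 under the overexpression label. TNC and ABI3BP entered this test through the filter described above. SPOCK1 did not differ detectably between the effects (-0.30, SE 0.17, limma adjusted P = 0.271), being higher in both. All 5 members down-regulated in line 87 were among the 7 up-regulated under the knockout label, which is 5 of 5 and 5 of 7, or 4 without TNC. Over the 13792 genes tested in both, 94 genes (0.682%) had both calls, of 376 down-regulated in line 87 and 1152 up-regulated under the knockout label. By TPM, line 87 had the highest U11 value of the overexpression libraries, and the libraries labelled U11 knockout were not below their controls. Capture of this short RNA was not tested, so these TPM values do not settle the U11 level of the cells.

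Other genes of the matrix were read from 4 lists. Of 21 other matricellular genes, 7 passed the filter of the knockout comparison, and 5 were called up-regulated and 0 down-regulated, with a median log2 fold change of 0.67. CTGF, a connective tissue growth factor, went from 140.4 to 445.1 TPM (log2 fold change 1.66, SE 0.10, limma adjusted P = 0.00644), and CYR61, its close relative, from 137.7 to 226.1 TPM (0.71, SE 0.11, limma adjusted P = 0.0326). Receptors had 4 of 9 tested genes up-regulated and 0 down-regulated (median 0.50). ITGA5, the alpha subunit of the main fibronectin receptor, went from 20.7 to 75.2 TPM (1.81, SE 0.11, limma adjusted P = 0.00644), and LRP1, an endocytic receptor that binds thrombospondins, from 2.09 to 6.25 TPM (1.21, SE 0.19, limma adjusted P = 0.0352). Assembly and cross-linking genes had 3 of 14 up-regulated and 0 down-regulated (median 0.31), among them TLL1, a procollagen-processing protease (1.35, SE 0.17, limma adjusted P = 0.0239), and NID1, the basement membrane linker nidogen-1 (0.79, SE 0.14, limma adjusted P = 0.0426). Microfibril and elastic fibre genes had 1 of 8 up-regulated and 1 down-regulated, the latter EFEMP2, fibulin-4, at -0.83 (limma adjusted P = 0.0348). The medians stand beside 0.11 over all genes, and the counts beside 8.61% of all genes up-regulated and 3.15% down-regulated.

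In the overexpression comparison, these lists held 1 called gene in all, an up-regulated gene of the microfibril list, which did not pass after adjustment. By line, 2 of 9 receptors were down-regulated in line 87 and 1 was up-regulated in line 79. Of 14 assembly genes, 1 was up-regulated and 2 were down-regulated in line 79, and no gene of that list was called in lines 86 or 87. Of 9 microfibril genes, 2 were up-regulated and 1 down-regulated in line 79, and of 8 other matricellular genes 1 was up-regulated there. Among all genes, 0.767% were called up-regulated and 1.16% down-regulated in the overexpression comparison. By line these shares were 2.43% and 5.52% in line 79, 1.59% and 2.01% in line 86, and 2.08% and 3.05% in line 87.

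Other cell types were checked through their markers, since bulk RNA cannot tell fewer cells of a type from less RNA per cell. The 9 fibroblast markers summed to 1.75 to 1.78 TPM in T1 and T2 and to 2.80 to 3.81 TPM in U1 and U2, with COL1A1 and PDGFRB at 1 TPM or more on average under the knockout label. In the overexpression comparison they summed to 3.33 to 4.03 TPM in the controls, 3.17 to 4.27 TPM in line 79, 3.29 to 3.98 TPM in line 86 and 2.16 to 3.01 TPM in line 87, and COL1A2 and FAP were at 0 in every library. The fibroblast sum was thus higher under the knockout label and lower in line 87 than in the controls of the same comparison. Endothelial markers summed to 4.82 to 4.94 TPM in T1 and T2, 0.10 to 0.14 TPM in U1 and U2, 3.16 to 3.53 TPM in the overexpression controls and 32.4 to 34.2 TPM in line 79. CDH5 was the 1 gene of the 4 at 1 TPM or more, and PECAM1, VWF and KDR were at 0.115 TPM or less on average in each of the labelled and control groups. Leukocyte markers summed to 1.45 to 8.09 TPM over all libraries, with CD68 highest. The part of other cells in the results was not tested.

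The genes with the pattern most like each member were found by Pearson's r of log2(TPM + 1) over the 12 libraries, each centred on the mean of its comparison, among 10885 genes averaging 5 TPM or more. FN1 was followed by TMX4 (r = 0.985) and CD109 (r = 0.981), THBS1 by LATS2 (r = 0.987) and SERPINE2 (r = 0.976), and TGFBI by PTHLH (r = 0.978) and TNS1 (r = 0.963). CD109 went from 6.42 to 18.3 TPM under the knockout label and from 17.8 TPM in the controls to 12.1 TPM in line 87. SERPINE2, a protease inhibitor, went from 17.2 to 50.9 TPM under the knockout label and from 39.1 to 5.71 TPM in line 87. TNS1, a focal adhesion protein, went from 1.33 to 11.4 TPM under the knockout label. In the overexpression comparison it stood at 3.23 TPM in the controls, 11.2 TPM in line 79 and 1.42 TPM in line 87. TNC was closest to P3H4 (r = 0.947) and the basement membrane collagen COL4A2 (r = 0.944), FBN1 to TLE1 (r = 0.979) and TBC1D9 (r = 0.974), and SPOCK1 to HMOX1 (r = 0.969) and NDRG1 (r = 0.968). ABI3BP was closest to GPS2 (r = 0.953) and NRP2 (r = 0.896), THBS2 to RAD23B (r = 0.955) and MAN1B1 (r = 0.947), and SPARC to PSMD8 (r = 0.928) and IFT43 (r = 0.914). The points share libraries, controls and title codes, and these values are a description only.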

How the data were processed

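T24 RNA was sequenced in 12 libraries (2 × 150 bases, paired-end). The authors trimmed reads with fastp, aligned them to hg38 with Hisat2 and ran Stringtie on each library. The labels name polyA RNA, the study's methods rRNA depletion, and strand is not given in the sources used here. The authors deposited coverage (mean depth per base), FPKM and TPM for each gene, and replicates were not pooled. The files hold no counts, so the count test of the study was not used, and the spread between libraries gave the precision.

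Groups and line labels came from the sample labels. limma 3.58.1 in R 4.3.3 (trend, two-sided) was fitted on log2(TPM + 1) over all genes that reached 1 TPM in 2 or more libraries of the comparison, so that fold changes of low genes are understated. Calls needed a fold change of 1.5 or more with unadjusted P under 0.05, and P was adjusted by Benjamini-Hochberg over all genes tested. The line labels were fitted in 1 model of the 8 overexpression-comparison libraries. Fits were checked on simulated data. The members, lists and tests were chosen with earlier results of these data known. All 10 members were named; from each other list, at most the 2 largest rises and 2 largest falls in a comparison were named, with 5 TPM or more on average in 1 group and no overlap of the groups; and for each tested member the 2 genes most like it. Alternatives were a pseudocount of 0.1, FPKM, median ratio scaling, protein-coding genes rescaled to 1 total, other filters, no trend, other controls, a replicate block, line means, all libraries in 1 fit, and each library left out. Coverage, and leaving out libraries in the tests between lines and between effects, were added after seeing the data. Promoter bases came from RefSeq (GRCh38.p14). Python 3.11.15, numpy 2.4.6, pandas 2.3.3 and matplotlib 3.10.9 were used.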

Additional observations from a re-analysis of the deposited data

Results flagged for a closer look

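The 3 line labels differed in 7 members by the F test of limma, with adjusted P of 0.000724 for FN1, 0.000242 for TNC, 0.000152 for THBS1, 0.0124 for THBS2, 0.000543 for SPOCK1, 3.93e-05 for TGFBI and 0.00137 for FBN1. The test compared the lines with each other, and its error is the spread between libraries of a group, 2 per line, which may be technical. The effect under the knockout label and the effect under the overexpression label differed in 6 members by limma, and the log2 differences (knockout-label effect minus overexpression-label effect) were 2.0 for FN1, 3.04 for TNC, 2.53 for THBS1, -2.46 for ABI3BP, 2.32 for TGFBI and 1.26 for FBN1. TNC and ABI3BP passed the filter of the knockout comparison only through the group where they were higher. The spread between lines does not enter the error of these differences. Of the overexpression libraries, the 1 group with enough libraries for Dixon's test, none stood apart from the other 5 in any of the 10 genes, though these libraries form pairs by line label. Groups of 2 could not be tested.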

How the results depend on the processing

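Counts of members called up under the knockout label (7) moved to 3 with all 4 controls and to 4 with the controls of the other comparison, and ranged from 5 to 7 with 1 library left out. The 1 call in the down direction, ABI3BP, became 0 with FPKM, with no filter, with 1 TPM in every library, with coverage and after adjustment, became 3 with the controls of the other comparison, and ranged from 0 to 1 with 1 library left out. Under the overexpression label the up count of 2 became 1 with FPKM, protein-coding genes rescaled, no filter, no trend, coverage, line means, the replicate block and adjustment, and 4 with the controls of the other comparison, with a range of 1 to 2 when 1 library was left out. The down count of 0 became 1 with all 4 controls and 2 with all 12 libraries in one fit, and ranged from 0 to 1. In line 86 the down count of 2 became 1 with FPKM and 0 with 1 TPM in every library, and ranged from 1 to 2. Over all genes, all 4 controls gave 338 up and 638 down of 15433 under the knockout label. Under the overexpression label they gave 2863 up and 370 down of 16134. The controls of the other comparison gave 833 up and 9054 down of 15203 under the knockout label. Under the overexpression label they gave 10376 up and 536 down of 15874. Member counts in these settings are to be read beside those numbers. The causes were not tested. Some directions reversed where controls were pooled or exchanged. With all 4 controls, the log2 fold change was -0.13 for TNC and -0.0444 for SPARC under the knockout label, and 0.18 for FN1 and 0.52 for FBN1 under the overexpression label. With the controls of the other comparison it was -1.59 for TNC, -0.81 for SPARC and -0.30 for FBN1 under the knockout label, and 0.68 for FN1, 1.204 for TNC and 1.21 for FBN1 under the overexpression label. Values near 0 also changed sign: THBS2 under the overexpression label with coverage (0.0423), SPARC in line 87 with coverage (-0.16), FBN1 in line 86 with FPKM (-0.0066), and FN1 in line 86 with FPKM (-0.0154), median ratio scaling (-0.0059) and coverage (-0.0061). With 1 library left out, values ranged from -0.16 to 0.0935 for THBS2, from -0.0226 to 0.0928 for SPARC and from -0.034 to 0.69 for TGFBI under the overexpression label, from -0.0322 to 0.0413 for FN1 and from -0.0293 to 0.0554 for FBN1 in line 86, and from -0.0642 to 0.19 for THBS2 and from -0.0557 to 0.17 for SPARC in line 87. Without a library of the knockout comparison, TNC or ABI3BP could fall under the filter and have no value. Genes over all those tested that passed after adjustment under the knockout label numbered 984, but 25 with no filter, 20 with all 4 controls, 9819 with the controls of the other comparison, 147 with the replicate block and 0 to 1712 with 1 library left out. The labels share numbers across groups, but same-numbered libraries deviated together weakly (r = 0.024 for the knockout comparison and 0.07 to 0.116 for the title codes), so the numbers were not taken as a pairing. With the replicate block, counts were 7 up and 1 down under the knockout label, and the SPOCK1 call under the overexpression label was lost (limma, unadjusted P = 0.0684). POSTN and, in part, TNC, THBS2 and ABI3BP lie near the 1 TPM filter, which limits what these libraries can show of them.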
